A study of Mus musculus with 16 samples.

Results

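The 10 genes described here encode the enzymes that make GABA (Gad1 and Gad2), the neuropeptides and other markers that divide cortical and striatal interneurons into types (Sst, Npy, Cck, Vip, Pnoc, Pvalb and Nos1), and a transcription factor of the interneuron lineage (Lhx6). They were taken by gene symbol as a fixed list, drawn up with earlier results of these data known, and all 10 were found among the 24033 genes used, while 9 of them passed the filter for testing (at least 1 FPKM in at least 4 libraries). RNA was sequenced from striatum and hippocampus of 4 adult mice, numbered 970, 971, 974 and 977, at postnatal day 63. Each mouse carried an Aldh1l1-Cre/ERT2 transgene (hemizygous) and a RiboTag allele (heterozygous) on an FVB background backcrossed to C57/Bl6N. The mice were of both sexes, and the labels do not say which animal was of which sex. Each animal gave 4 libraries, namely striatal IP, striatal input, hippocampal IP and hippocampal input, so each group held 4 libraries and there were 16 in all. The IP was RNA bound to ribosomes that carry a hemagglutinin tag, which the Aldh1l1 driver places in astrocytes, and the input was RNA of the same cleared tissue lysate, from all cells of the region. Cre/ERT2 is a form of the recombinase that acts once tamoxifen binds it.

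Interneurons are neurons that act within a region and mostly release GABA, the main inhibitory transmitter of the brain. Glutamate decarboxylase makes GABA from glutamate in a pair of forms: GAD67, the product of Gad1, is active throughout the cell, and GAD65, the product of Gad2, sits mainly at nerve endings. In the hippocampus GABA comes from scattered interneurons among glutamatergic principal cells, whereas in the striatum the projection neurons are themselves GABAergic, so that Gad1 and Gad2 there are not confined to interneurons. The peptides are stored in dense core granules and act on G protein-coupled receptors. In the brain these genes are known from neurons, and in the astrocyte IP their levels are set beside those of other neuronal genes.

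The promoters of Sst and Vip are shown because peptide genes are the textbook targets of cAMP signalling, and Sst is the gene in which, in the rat, the cAMP response element was first described. RefSeq promoter windows (GRCm38.p6, 250 bases before to 50 bases after a start) matched 9 of the 10 genes, all but Pnoc, in 12 windows. The element's full palindrome TGACGTCA, searched on both strands, was in the window of 1 gene, Sst, and in 1.79% of all 32851 windows. Its core TGACG, searched on both strands and also counted inside the full palindrome, was in 5 of the 12 windows, those of Gad2, Sst, Cck, Vip and Nos1, and in 20.8% of all windows. The match began 48 bases before the window's start site in Sst, 47 in Cck, 33 in Gad2, 79 in Vip and 130 in Nos1. The Nos1 window (chr5:117866589-117866888) lies at a start site inside the gene, whose annotated span begins at chr5:117781032. In the sequences, written 5′ to 3′ along each gene, capitals mark the palindrome in Sst (chr16:23890795-23891094, minus strand) and the core in Vip (chr10:5638968-5639267, plus strand).
Sst: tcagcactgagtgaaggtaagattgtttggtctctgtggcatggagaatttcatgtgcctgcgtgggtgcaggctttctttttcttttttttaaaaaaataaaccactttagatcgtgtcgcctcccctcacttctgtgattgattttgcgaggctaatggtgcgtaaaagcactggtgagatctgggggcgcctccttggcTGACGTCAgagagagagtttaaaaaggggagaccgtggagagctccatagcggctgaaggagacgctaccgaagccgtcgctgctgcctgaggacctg
Vip: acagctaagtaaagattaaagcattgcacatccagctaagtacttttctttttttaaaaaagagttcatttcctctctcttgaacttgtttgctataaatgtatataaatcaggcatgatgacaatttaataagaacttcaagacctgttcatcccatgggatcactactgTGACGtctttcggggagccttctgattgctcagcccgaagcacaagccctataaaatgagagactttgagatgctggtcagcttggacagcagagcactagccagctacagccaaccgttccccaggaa
A match describes the letters of these windows and shows no binding.

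Levels are given as FPKM (fragments per kilobase of transcript, relative to the library's total) divided by a scaling factor per library, in the order of animals 970, 971, 974 and 977. Depth, recovered from the steps between FPKM values and given in units of 1e6 counted fragments, was 13.97 to 21.8 per library in striatal IP, 4.15 to 8.97 in striatal input, 18.93 to 22.65 in hippocampal IP and 9.04 to 12.24 in hippocampal input. The astrocyte gene Aldh1l1 averaged 105 ± 27.6 in striatal IP and 4.29 ± 1.06 in striatal input, and 109.8 ± 11.3 in hippocampal IP and 4.53 ± 1.35 in hippocampal input (scaled FPKM, SD, n = 4 each). Of 20 astrocyte markers, 20 rose in IP over input in both regions. The 18 pan-neuronal markers summed to 219.7 to 294.2 in striatal IP, against 2244 to 2816 in striatal input, and to 256.3 to 353.9 in hippocampal IP, against 4387 to 4536 in hippocampal input, with no marker at 0 in any group. Markers of other cells also fell in IP, in striatum 9 of 10 oligodendrocyte, 8 of 9 microglial and 5 of 5 endothelial genes. The same numbers fell in hippocampus, but there the oligodendrocyte gene Cnp rose (69.0 scaled FPKM in IP, 25.1 in input). In striatum Cnp did not pass. Striatal inputs 971 and 974 stood apart from the other striatal inputs by some genes and not by others. Ppp1r1b, a phosphatase inhibitor on the projection neuron list, was at 459.8, 215.3, 118.3 and 503.4 in the 4 striatal inputs. Adora2a of the same list was at 50.1, 31.7, 11.5 and 50.9, and the oligodendrocyte gene Mbp at 61.5, 29.2, 28.6 and 61.9. In contrast, Drd1a of the projection neuron list was at 34.5, 37.1, 36.9 and 34.3, and Penk at 739.2, 853.8, 727.3 and 645.5. The 19 projection neuron markers summed to 2631, 2807, 2463 and 2370. Tests of the 10 genes against or between the inputs are also given without striatal inputs 971 and 974. Because whole tissue was sampled, fewer cells of a type and less RNA per cell cannot be told apart in the inputs.

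Both GABA synthesis genes were far lower in astrocyte IP than in input, in both regions. Gad1 (chr2:70553072-70602014, plus strand, GRCm38) was at 7.85, 8.55, 20.5 and 14.99 in striatal IP, against 61.6, 75.9, 83.9 and 75.2 in striatal input. In the hippocampus it was at 3.79, 2.77, 4.295 and 3.93 in IP, against 36.4, 33.1, 35.3 and 33.1 in input. No IP library overlapped an input library of its region, and the hippocampal inputs lay closest together. By limma's moderated test with Benjamini-Hochberg adjustment, which is the test behind every adjusted p here, Gad1 fell by 2.52 ± 0.22 (log2, adjusted p = 4.36e-08) in striatal IP and fell by 2.93 ± 0.22 (log2, adjusted p = 5.9e-09) in hippocampal IP. These fold changes are on the log2(scaled FPKM + 1) scale with their standard error, a scale that understates the change of genes near or below 1 FPKM.

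Gad2 (chr2:22622205-22693874, plus strand) was the more abundant of the pair in every input library. It was at 10.3, 10.8, 23.1 and 23.4 in striatal IP, against 188.6, 272.3, 323.4 and 207.9 in striatal input. It was at 3.24, 2.09, 4.07 and 3.69 in hippocampal IP, against 81.1, 68.95, 83.8 and 75.4 in hippocampal input. The groups did not overlap, and Gad2 fell by 3.86 ± 0.25 (log2, adjusted p = 1.56e-09) in striatal IP and fell by 4.22 ± 0.25 (log2, adjusted p = 4.25e-10) in hippocampal IP. In striatal IP both genes were higher in animals 974 and 977 than in 970 and 971. In the same 4 libraries the summed astrocyte markers were 14000, 15140, 8369 and 9914 scaled FPKM, the summed pan-neuronal markers 219.7, 247.6, 283.9 and 294.2, and the summed projection neuron markers 263.5, 325.4, 470.8 and 404.1, whose part in the result was not tested.

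**Figure D1:**
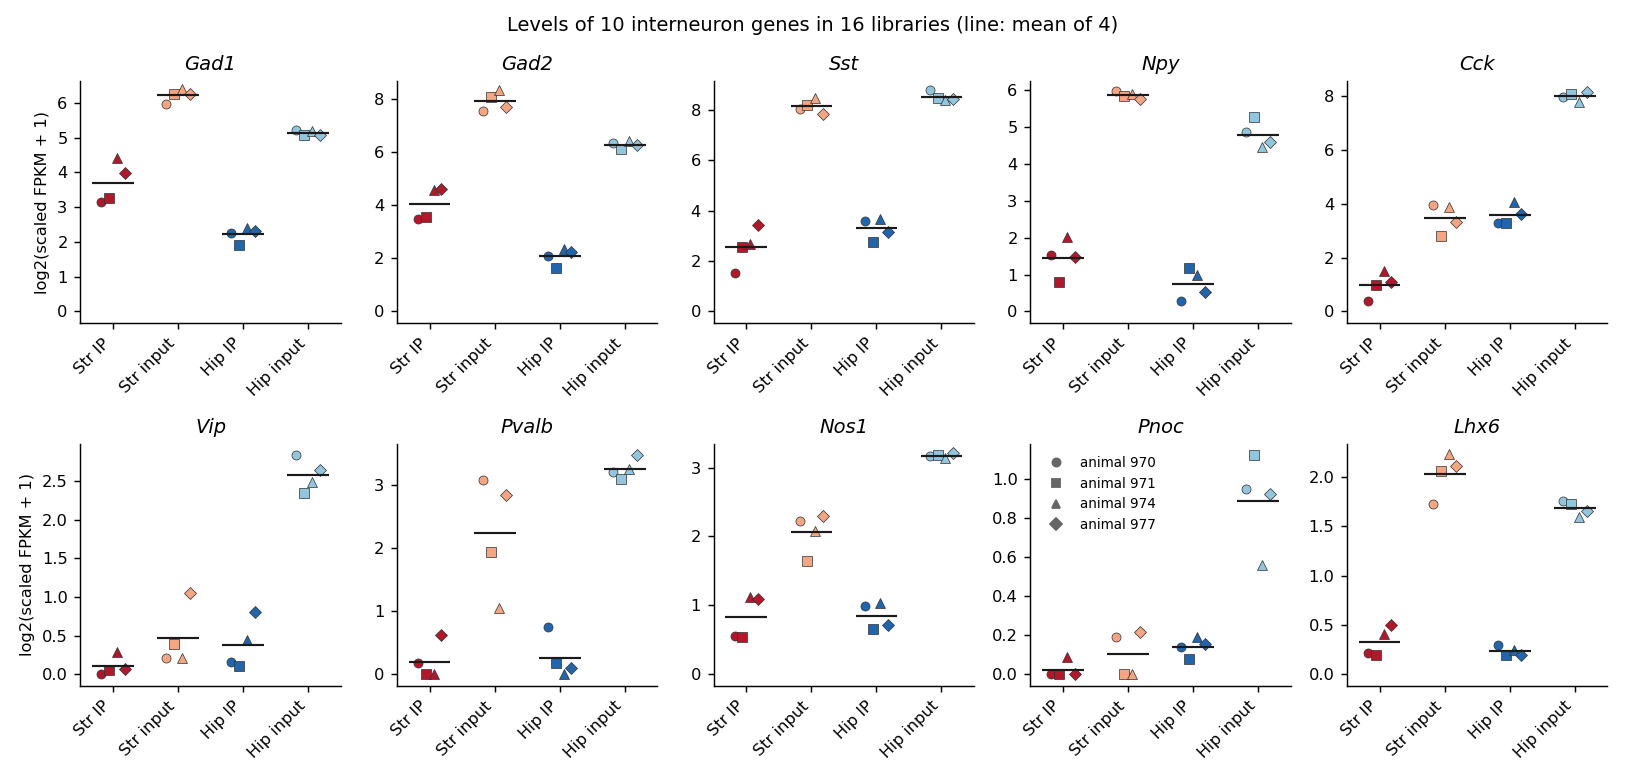
Level of each gene in the 16 libraries, on the y axis as log2(scaled FPKM + 1), with 1 symbol per animal and a line at the mean of 4. In every panel both IP groups lie below the input of their own region on average, with overlap between striatal IP and striatal input for Vip and Pnoc, and hippocampal IP overlaps striatal input for Cck, Vip and Pnoc.

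Sst, the peptide of dendrite-targeting interneurons, was the most abundant of the 10 genes in hippocampal input. Sst (chr16:23889573-23890958, minus strand) was at 1.91, 4.86, 5.46 and 9.87 in striatal IP, against 261.1, 293.9, 359.4 and 227.3 in striatal input. It was at 11.2, 5.71, 11.9 and 7.96 in hippocampal IP, against 441.7, 356.1, 332.7 and 343.6 in hippocampal input. The IP and input libraries were far apart, and the striatal IP of animal 970 was the lowest of the 16, with 19 fragments. Sst fell by 5.59 ± 0.30 (log2, adjusted p = 2.32e-10) in striatal IP and fell by 5.22 ± 0.30 (log2, adjusted p = 2.9e-10) in hippocampal IP. These were the largest falls of the 9 tested genes on this scale, whereas on recovered fragments the fitted value in hippocampus was -5.96 ± 0.76 for Pvalb and -5.37 ± 0.27 for Sst, a difference within the standard error of Pvalb. Npy was at -5.32 ± 0.47 in that fit, near Sst.

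Npy, an inhibitory peptide that many Sst cells also make, was lower in both IPs too. Npy (chr6:49822710-49829507, plus strand) was at 1.88, 0.7501, 3.01 and 1.77 in striatal IP, against 61.04, 55.9, 58.3 and 53.3 in striatal input. It was at 0.225, 1.28, 0.994 and 0.439 in hippocampal IP, against 27.9, 37.3, 20.8 and 22.95 in hippocampal input. The groups were apart, but the IP values rest on few fragments, 7 to 24 per library in striatal IP and 2 to 12 in hippocampal IP. Npy fell by 4.41 ± 0.24 (log2, adjusted p = 2.33e-10) in striatal IP and fell by 4.03 ± 0.24 (log2, adjusted p = 3.68e-10) in hippocampal IP.

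Cck, the peptide of basket cells that carry cannabinoid receptors and a gene also transcribed in many pyramidal cells, was abundant in hippocampal input and low in the striatum. Cck (chr9:121489824-121495694, minus strand) was at 0.312, 0.98, 1.81 and 1.16 in striatal IP, against 14.6, 5.901, 13.8 and 8.93 in striatal input. It was at 8.86, 8.795, 15.9 and 11.4 in hippocampal IP, against 249, 272, 219.1 and 286.8 in hippocampal input. The IP groups lay below their inputs without overlap, and the levels in hippocampal IP overlapped those in striatal input. Cck fell by 2.49 ± 0.26 (log2, adjusted p = 3.89e-07) in striatal IP and fell by 4.43 ± 0.26 (log2, adjusted p = 3.59e-10) in hippocampal IP.

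Vip marks interneurons that mainly inhibit other interneurons, and hippocampal input was the only group in which every library had it above 1 FPKM. Vip (chr10:5639218-5647617, plus strand) was at 0, 0.0381, 0.224 and 0.0451 in striatal IP, against 0.157, 0.314, 0.158 and 1.07 in striatal input. It was at 0.12, 0.0761, 0.354 and 0.742 in hippocampal IP, against 6.17, 4.09, 4.63 and 5.22 in hippocampal input. The hippocampal groups were apart, whereas the striatal groups overlapped and rest on 0 to 5 fragments per IP library and 1 to 19 per input library. The value of 0, in striatal IP 970, allows up to 0.118 scaled FPKM at 3 fragments, counting error only. Vip fell by 2.20 ± 0.19 (log2, adjusted p = 3.58e-08) in hippocampal IP, and its striatal difference of -0.36 ± 0.19 did not pass (adjusted p = 0.109), although it did with a pseudocount of 0.1 in place of 1 (-1.41, adjusted p = 0.0361) and in a test on the recovered fragments (-2.62, adjusted p = 0.0117).

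Pnoc, the precursor of nociceptin, was the least abundant gene and did not pass the filter, so it was not tested. Pnoc (chr14:65400673-65425472, minus strand) was at 0, 0, 0.06395 and 0 in striatal IP, against 0.141, 0, 0 and 0.161 in striatal input. It was at 0.1002, 0.0544, 0.141 and 0.112 in hippocampal IP, against 0.934, 1.18, 0.474 and 0.894 in hippocampal input. The hippocampal IP libraries lay below the inputs without overlap, and in the striatum the gene was at or near 0 in all 8 libraries. The striatal zeros allow up to 0.0409 to 0.0483 in IP and 0.112 to 0.170 in input. With no filter the fitted difference in hippocampal IP was -0.75 ± 0.09 (adjusted p = 6.69e-06), and in striatal IP -0.08 ± 0.09 (adjusted p = 0.543).

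Pvalb encodes the calcium buffer of fast-spiking basket cells, and its transcript was near 0 in most IP libraries. Pvalb (chr15:78191114-78206400, minus strand) was at 0.133, 0, 0 and 0.534 in striatal IP, against 7.46, 2.84, 1.07 and 6.17 in striatal input. It was at 0.677, 0.129, 0 and 0.0661 in hippocampal IP, against 8.18, 7.54, 8.46 and 10.1 in hippocampal input. All IP libraries lay below all inputs of their region, with 0 to 7 fragments in striatal IP and 0 to 10 in hippocampal IP, and the zeros allow up to 0.194 to 0.227 in striatal IP and 0.1996 in hippocampal IP. Pvalb fell by 2.03 ± 0.33 (log2, adjusted p = 4.7e-05) in striatal IP and fell by 3.00 ± 0.33 (log2, adjusted p = 5.32e-07) in hippocampal IP. Striatal inputs 971 and 974 were the lowest of that group, at 2.84 and 1.07, and are the libraries that also stood apart by Ppp1r1b.

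Nos1, the neuronal nitric oxide synthase, fell in both IPs. Nos1 (chr5:117781032-117958840, plus strand) was at 0.467, 0.452, 1.18 and 1.13 in striatal IP, against 3.65, 2.12, 3.204 and 3.93 in striatal input. It was at 0.977, 0.583, 1.04 and 0.64 in hippocampal IP, against 7.94, 8.08, 7.78 and 8.26 in hippocampal input. The 4 hippocampal inputs differed by 1.06-fold at most, the narrowest spread of any gene and group here, and no groups overlapped within a region. Nos1 fell by 1.23 ± 0.17 (log2, adjusted p = 7.71e-06) in striatal IP and fell by 2.33 ± 0.17 (log2, adjusted p = 3.71e-09) in hippocampal IP. An annotated antisense gene, Gm26995, overlaps exons of Nos1, and the library kit does not mark strand, so reads of the pair could not be told apart.

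Lhx6, which drives migrating interneuron precursors of the medial ganglionic eminence to their Sst and Pvalb fates, was at a low level in both tissues. Lhx6 (chr2:36081953-36105408, minus strand) was at 0.158, 0.148, 0.327 and 0.417 in striatal IP, against 2.31, 3.18, 3.71 and 3.32 in striatal input. It was at 0.229, 0.148, 0.189 and 0.147 in hippocampal IP, against 2.37, 2.32, 2.02 and 2.14 in hippocampal input. The IP libraries lay below all inputs, and with 33 to 81 fragments each they were better counted than those of Npy, Vip or Pvalb. Lhx6 fell by 1.70 ± 0.12 (log2, adjusted p = 3.59e-09) in striatal IP and fell by 1.45 ± 0.12 (log2, adjusted p = 1.9e-08) in hippocampal IP. A small RNA gene, Gm27953, lies on the same strand within its exons.

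Counted together, 8 of the 9 tested genes fell in striatal IP, 1 did not pass (Vip) and 0 rose, with a median log2 fold change of -2.49 against 0.01 over all 13449 genes tested, of which 31.4% fell and 33.5% rose. In hippocampal IP 9 of 9 fell, with a median of -3.00 against -0.10 over all genes, of which 35.4% fell and 30.1% rose. The IP libraries lay wholly below the inputs for 8 of the 9 in the striatum, as for 24.7% of all genes tested, and for 9 of the 9 in the hippocampus, as for 37.4% of all genes tested. Vip, Pvalb and Lhx6 reached 1 FPKM in input libraries only, and so were tested through the groups where they are high. Npy and Nos1 reached it in 0 hippocampal IP libraries and in 3 and 2 striatal IP libraries. They too passed the filter of 4 libraries only with the inputs, where they are high. Without striatal inputs 971 and 974, 8 of 9 genes fell in striatal IP, with log2 fold changes of -5.38 for Sst, -4.41 for Npy, -3.57 for Gad2, -2.40 for Gad1, -2.64 for Cck, -2.76 for Pvalb, -1.43 for Nos1 and -1.59 for Lhx6, and Vip at -0.53 did not pass (adjusted p = 0.062).

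**Figure D2:**
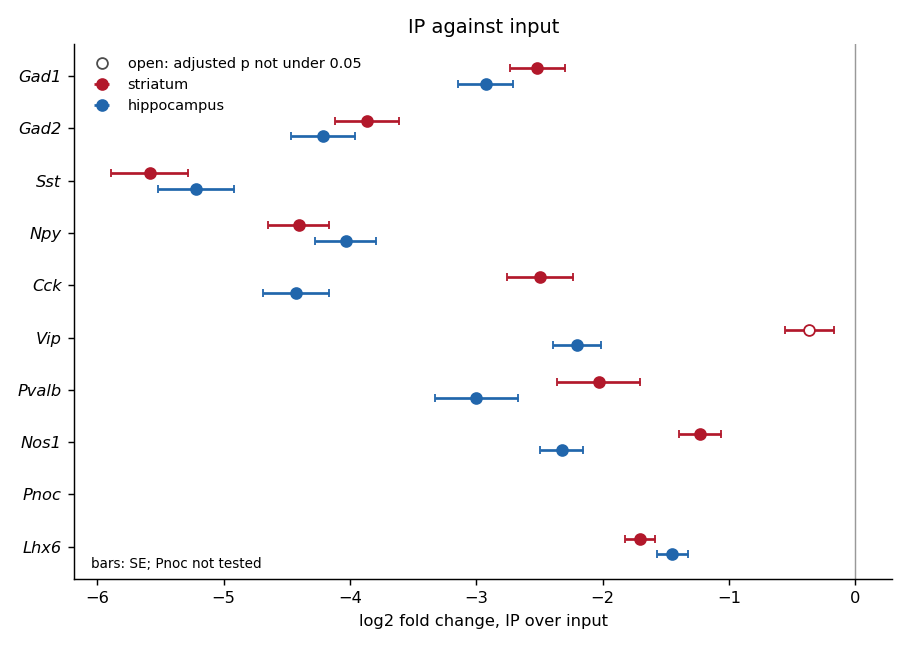
Log2 fold change of IP over input, on the x axis, for each tested gene in striatum (above) and hippocampus (below), with bars for the standard error and an open symbol where the adjusted p was not under 0.05. Sst lies farthest left at -5.59 in striatum and -5.22 in hippocampus, and Vip in striatum is the one open symbol.

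The IP level as a percent of the same animal's input shows how the genes differ from each other. Among the 7 genes with at least 50 fragments in every input library, the lowest mean shares were those of Sst, at 2.06 ± 1.58% in striatum and 2.51 ± 0.82% in hippocampus (SD, n = 4 each). Npy was at 3.23 ± 1.57% in striatum and 2.74 ± 1.74% in hippocampus. The order of Sst and Npy changed between animals. In animal 970 Npy was below Sst in hippocampus (0.805 against 2.54%) and above it in striatum (3.08 against 0.730%). Gad2 was at 6.96 ± 3.16% in striatum and 4.197 ± 0.88% in hippocampus, below Gad1 at 17.1 ± 6.21% and 10.7 ± 1.74% in the same regions. Lhx6 was at 8.22 ± 3.37% in striatum and 8.05 ± 1.67% in hippocampus. The highest mean share in striatum was that of Nos1, at 25.0 ± 10.3%, while in hippocampus Nos1 was at 10.2 ± 3.13%. Cck was at 11.2 ± 6.28% in striatum, where animal 970 had 2.13% and the others 13.0 to 16.6%, and at 4.503 ± 1.85% in hippocampus. Over striatal animals 970 and 977 alone, the mean share was 2.54% for Sst, 3.21% for Npy, 8.36% for Gad2, 16.3% for Gad1, 9.70% for Lhx6, 20.8% for Nos1 and 7.55% for Cck.

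The median share over the 18 pan-neuronal markers was 10.7, 12.6, 31.6 and 16.8% in the striatum of the 4 animals and 6.37, 6.24, 11.99 and 9.41% in the hippocampus. Sst, Npy and Gad2 lay below it in 4 of 4 animals in both regions, Sst at 0.0482 to 0.259 times the pan-neuronal share in striatum and 0.246 to 0.399 times in hippocampus. Gad1 lay above it in 2 of 4 animals in striatum and in 4 of 4 in hippocampus. Nos1 lay above it in 4 of 4 in striatum and in 3 of 4 in hippocampus, and Lhx6 in 0 of 4 in striatum and in 2 of 4 in hippocampus. Cck lay below it in 3 of 4 in striatum and in 4 of 4 in hippocampus. These shares are descriptions per animal, with no test of their own, and animal 974 had the highest pan-neuronal share in both regions. The 18 markers themselves spread widely, with log2 fold changes in IP from -4.97 to -0.22 in striatum and from -4.88 to -0.98 in hippocampus. Npy, Gad2 and Cck lay inside that range in both regions, and Sst, at -5.59 and -5.22, lay below it. Lying below the median thus does not by itself set a gene apart from the pan-neuronal markers.

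**Figure D3:**
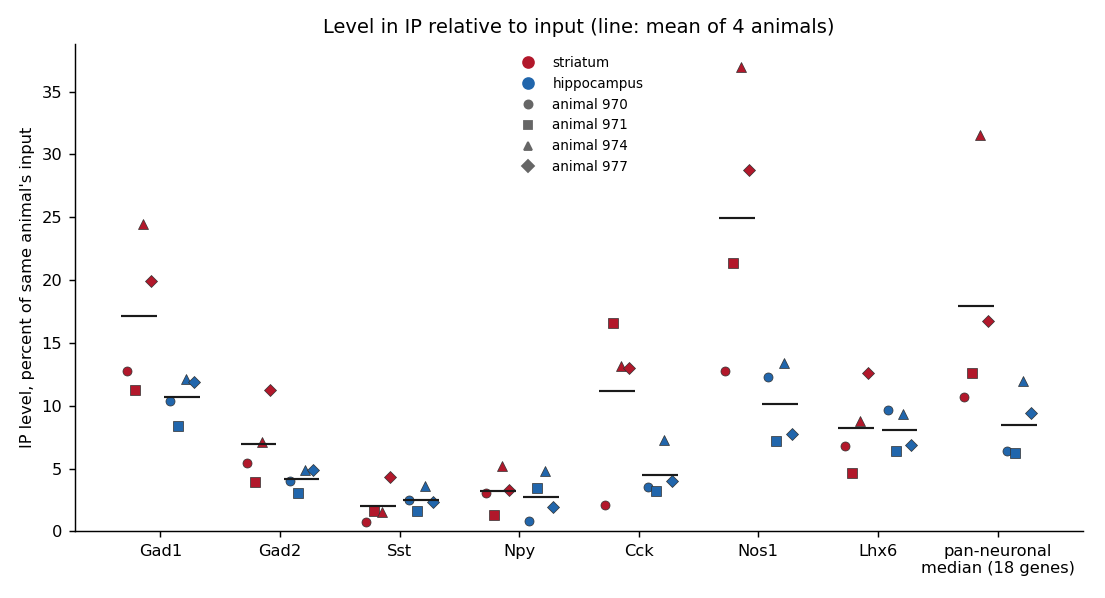
IP level as a percent of the same animal's input, on the y axis, for the 7 genes with at least 50 fragments in every input library and for the median of 18 pan-neuronal markers, striatum left of hippocampus, with 1 symbol per animal and a line at the mean. Sst, Npy and Gad2 sit below the pan-neuronal median of the same animal in every case, and Nos1 in striatum reaches 37.0% in animal 974. The spread of the 18 markers around their median is not drawn.

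The inputs compare the regions as whole tissue. In striatal against hippocampal input, 4 of the 9 tested genes were higher and 4 lower, where 14.5% of all genes were higher and 21.8% lower, and 6 of the 9 were called without striatal inputs 971 and 974. Gad2 rose by 1.64 ± 0.25 (log2, adjusted p = 9.54e-05) and Gad1 by 1.08 ± 0.22 (log2, adjusted p = 0.00122), with no overlap of the libraries. Npy was higher too, by 1.08 ± 0.24 (log2, adjusted p = 0.0024). Without striatal inputs 971 and 974 the differences were 1.35, 0.96 and 1.07 in the same order (adjusted p = 0.00335, 0.0183 and 0.0185). Striatal projection neuron markers, GABAergic cells themselves, were higher in striatal input for 19 of 19 genes, summing to 2370 to 2807 scaled FPKM against 82.9 to 90.6 in hippocampal input, and their part in the Gad1 and Gad2 values was not tested.

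Cck had the largest difference between the inputs, a log2 fold change of -4.52 ± 0.26 (adjusted p = 1.52e-09). Vip fell by 2.11 ± 0.19 (log2, adjusted p = 2.76e-07) and Nos1 fell by 1.11 ± 0.17 (log2, adjusted p = 7.57e-05), both with no overlap. However, Vip reached 1 FPKM in 4 hippocampal inputs and 1 striatal input, so it passed the filter only through the group where it is high. The striatal inputs held 1 to 19 Vip fragments each. Without striatal inputs 971 and 974 the differences were -4.36 for Cck, -1.95 for Vip and -0.91 for Nos1 (adjusted p = 4.13e-08, 1.72e-05 and 0.0013). Markers of pallial glutamatergic neurons, a class that includes Cck-expressing pyramidal cells, were lower in striatal input for 14 of 16 genes, and summed to 360.1 to 409.3 in striatal input against 952.1 to 1098 in hippocampal input, with Emx1 listed at 0 in all striatal inputs. The largest term of the striatal sum was Camk2a, which averaged 193.7 there and 411.0 in hippocampal input. Slc17a7 averaged 3.06 in striatal and 181.1 in hippocampal input, and Neurod6 1.13 and 67.3. Nrgn, at 57.1 and 85.3, and Wfs1, at 45.5 and 39.1, did not pass. The part of the pallial markers in the Cck value was not tested. Sst did not pass in this comparison (log2 -0.38, adjusted p = 0.342, or -0.59, adjusted p = 0.314, without striatal inputs 971 and 974), and its libraries overlapped.

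The calls of Pvalb and Lhx6 between the inputs did not hold in several fits. Pvalb fell by 1.02 ± 0.33 (log2, adjusted p = 0.0234), against -0.29 with adjusted p = 0.37 without striatal inputs 971 and 974, and it also missed the threshold without animal 971 (adjusted p = 0.133) or 974 (adjusted p = 0.108). Lhx6 rose by 0.35 ± 0.12 (log2, adjusted p = 0.0316), against 0.24 with adjusted p = 0.233 without striatal inputs 971 and 974, and it missed the threshold without animal 971, 974 or 977 (adjusted p = 0.123 to 0.196). Pnoc had 0.141, 0, 0 and 0.161 scaled FPKM in striatal input, below every hippocampal input.

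Between the IPs, 2 of 9 tested genes were higher in striatum and 1 was lower, where 7.18% of all genes were higher and 5.37% lower. Gad2 rose in striatal IP over hippocampal IP by 1.99 ± 0.25 (log2, adjusted p = 4.77e-05) and Gad1 by 1.49 ± 0.22 (log2, adjusted p = 0.000198). Cck fell by 2.58 ± 0.26 (log2, adjusted p = 5.1e-06). These 3 of the 9 were also those whose IP libraries did not overlap between regions, where 10.2% of all genes lay wholly higher and 9.34% wholly lower in striatal IP. Striatal projection neuron markers were higher in striatal IP for 17 of 19 genes and lower for 1, with a median log2 fold change of 2.16. Their part in the Gad1 and Gad2 values was not tested here either. The vesicular GABA transporter gene Slc32a1, which neurons use to load GABA, averaged 1.89 ± 0.44 in striatal IP and 0.185 ± 0.104 in hippocampal IP (SD, n = 4 each), and 17.8 ± 4.89 in striatal input and 6.49 ± 0.83 in hippocampal input.

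Npy in striatal over hippocampal IP was at a log2 fold change of 0.70 ± 0.24 that did not pass (adjusted p = 0.0694), and passed the threshold without animal 971 (1.06, adjusted p = 0.00764) or with a pseudocount of 0.1 (1.30, adjusted p = 0.046). Sst was at a log2 fold change of -0.75 ± 0.30 that did not pass (adjusted p = 0.133). Vip, Pvalb, Nos1 and Lhx6 did not pass either (adjusted p = 0.424, 0.95, 0.966 and 0.698 by limma). With this spread, the standard error of a difference between IPs was 0.12 to 0.33 on the log2 scale for the tested genes. Differences of that size were not detectable, and the larger ones of Npy and Sst did not pass in this fit either. For Vip, Pvalb, Nos1 and Lhx6, which averaged below 1 scaled FPKM in both IPs, this scale also understates any difference.

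**Figure D4:**
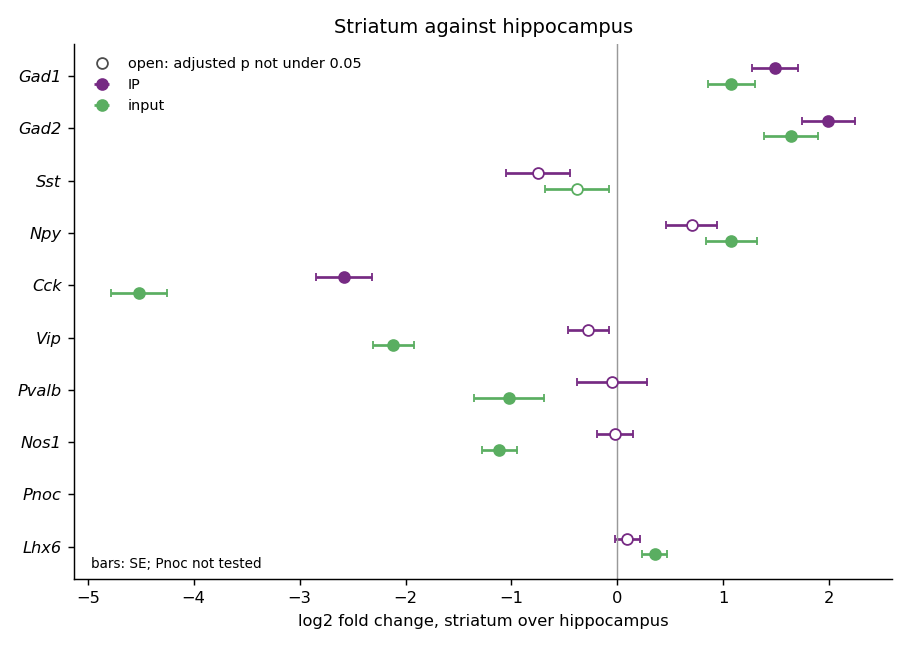
Log2 fold change of striatum over hippocampus, on the x axis, in IP (above) and in input (below) for each tested gene, with bars for the standard error and open symbols where the adjusted p was not under 0.05. Gad1 and Gad2 lie right of 0 and Cck left of 0 in both, at 1.49, 1.99 and -2.58 in IP and 1.08, 1.64 and -4.52 in input.

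Whether the fall in IP differed between regions was tested as the striatal IP over input change minus the hippocampal one. It differed for 3 of 9 genes, all with the less negative change in striatum, where 8.46% of all genes had a higher and 5.34% a lower value. Pan-neuronal markers went the same way, with 7 of 18 higher and 0 lower. Their median difference was 0.70, against 0.41 for the 9 tested genes, so the direction is not particular to these genes. The difference was 1.93 ± 0.37 for Cck (adjusted p = 0.00209), 1.84 ± 0.27 for Vip (adjusted p = 0.000244) and 1.10 ± 0.24 for Nos1 (adjusted p = 0.00534). Without striatal inputs 971 and 974 it was 1.78, 1.68 and 0.89 in the same order (adjusted p = 0.00409, 0.00172 and 0.0179). Vip reached 1 FPKM in the 4 hippocampal inputs and 1 striatal input only, so it was tested through the group where it is high, and its striatal input averaged 0.424 scaled FPKM. With a pseudocount of 0.1 none of the 3 passed (Cck 1.203, adjusted p = 0.168, Vip 2.45, adjusted p = 0.0605, Nos1 1.24, adjusted p = 0.0722), nor in the test on recovered fragments (1.07, 1.72 and 1.16 in the same order, adjusted p = 0.209, 0.304 and 0.0789). Gad1, Gad2, Sst, Npy, Pvalb and Lhx6 did not pass, with differences from -0.37 to 0.97 (adjusted p = 0.181 to 0.601).

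The order of the group means took a few forms. Gad1, Gad2, Npy and Lhx6 ran from striatal input through hippocampal input and striatal IP to hippocampal IP, with every neighbour apart for Gad1 and Gad2. For Npy the IP groups overlapped, and for Lhx6 both the inputs and the IPs did. Sst, Pvalb and Nos1 ran from hippocampal input through striatal input and hippocampal IP to striatal IP, with overlapping IPs for all 3 and overlapping inputs for Sst. Vip had the same order, with overlap among its lowest 3 groups. Cck and Pnoc had hippocampal IP above striatal input, and those neighbours overlapped for both, as did the striatal groups of Pnoc.

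The level of Gad1 relative to Gad2 was higher in the IPs than in the inputs. The ratio of Gad1 to Gad2 FPKM was 0.764, 0.794, 0.888 and 0.640 in striatal IP, against 0.327, 0.279, 0.259 and 0.362 in striatal input. It was 1.17, 1.32, 1.06 and 1.07 in hippocampal IP, against 0.449, 0.480, 0.421 and 0.439 in hippocampal input. The ratio was thus higher in every IP than in every input and lower in every striatal library than in every hippocampal library of the same kind. Striatal inputs 971 and 974 had the lowest ratios of their group, and 970 and 977 alone also lay below every IP. The log2 difference of IP over input was 1.33 in striatum and 1.36 in hippocampus. The pair was chosen after its values were seen, so these are descriptions with no test.

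**Figure D5:**
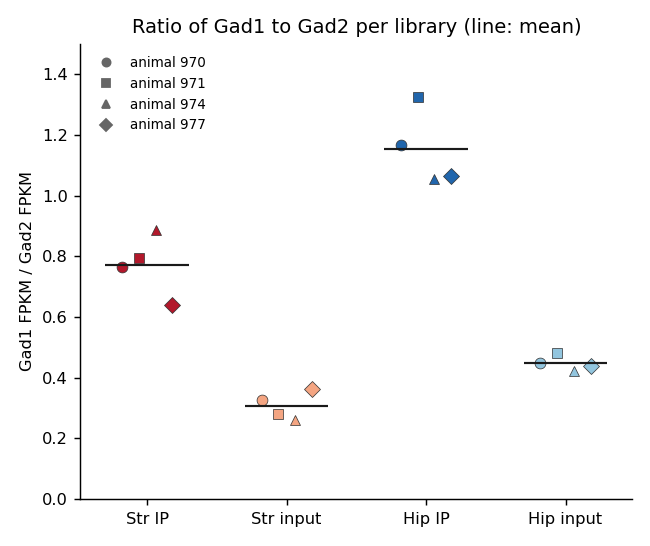
Ratio of Gad1 to Gad2 FPKM, on the y axis from 0, in each library, with 1 symbol per animal and a line at the group mean. The hippocampal IP libraries sit between 1.06 and 1.32 and the striatal IP libraries between 0.640 and 0.888, all above the inputs, which end at 0.480.

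Other genes of the same cells and pathways came from lists chosen by function. Of 29 tested other interneuron genes, 18 fell, 3 rose and 8 did not pass in striatal IP over input, with a median of -0.96, and 24 fell, 2 rose and 3 did not pass in hippocampal IP, with a median of -1.34. The falls in striatum included Nxph1, a neurexin ligand (-3.20, adjusted p = 2.32e-10), Cnr1, the cannabinoid receptor (-2.41, adjusted p = 8.16e-10), Slc32a1 (-2.68 in striatum, adjusted p = 1.29e-09) and Chat, which makes acetylcholine (-1.94, adjusted p = 1.33e-09). In hippocampus Kcnc1, a fast potassium channel subunit, fell by 2.42 (adjusted p = 3.11e-11), Cnr1 fell by 3.05 (adjusted p = 4.87e-11) and Nxph1 fell by 3.46 (adjusted p = 6.12e-11). Sox6, a transcription factor, rose by 1.87 there (adjusted p = 3.7e-10) and averaged 5.27 scaled FPKM in IP and 0.713 in input. Sox6 also rose in striatal IP (1.09), as did the transcription factor gene Dlx2 (1.56), with a mean of 3.96 in IP against 0.667 in input.

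The receptors that the peptides and nitric oxide act on were mostly lower in IP as well. Of 14 tested, 12 fell, 0 rose and 2 did not pass in striatum, and 12 fell, 1 rose and 1 did not pass in hippocampus. The NPY receptor Npy2r fell by 1.53 in striatum (adjusted p = 1.33e-07) and fell by 2.69 in hippocampus (adjusted p = 1.49e-10). The somatostatin receptors Sstr3 and Sstr1 also fell in hippocampal IP (log2 fold changes -2.21 and -1.97, adjusted p = 9.49e-10 and 7.58e-09). Gucy1a3, a subunit of the nitric oxide receptor guanylyl cyclase, fell by 1.66 in striatal IP (adjusted p = 2e-07), with 21.9 scaled FPKM in IP and 73.2 in input, and was the 1 receptor gene that rose in hippocampal IP (1.54).

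Genes of peptide processing divided. Of 13, 10 fell, 2 rose and 1 did not pass in striatum, and 11 fell and 2 rose in hippocampus. The risers in both regions were Cpe, the carboxypeptidase that trims peptide precursors, and Scg3, a granule sorting protein. Cpe averaged 4188 scaled FPKM in striatal IP and 272.7 in striatal input, and 5679 in hippocampal IP and 401.6 in hippocampal input (log2 fold changes 3.90 and 3.81). Scg3 averaged 438.9 in striatal IP and 47.9 in striatal input (3.24, adjusted p = 4.4e-09). The granule protein genes Chgb and Scg2 fell, with log2 fold changes of -3.64 and -3.22 in striatum and -4.38 and -3.06 in hippocampus.

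Genes that handle GABA by other means than Gad went the other way from Gad1 and Gad2. Of 10, 8 rose and 2 fell in striatal IP, and 8 rose, 1 fell and 1 did not pass in hippocampal IP. Maob, an amine oxidase on the path from putrescine to GABA, averaged 65.1 in striatal IP and 5.97 in striatal input, and 88.7 in hippocampal IP and 4.85 in hippocampal input. The transporter gene Slc6a11, whose product takes GABA up (log2 fold change 4.76 in striatum and 4.36 in hippocampus), and Abat, which breaks it down (2.40 and 2.90 in the same order), rose in both regions.

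As a description over the 16 libraries, the genes whose levels ran most like each member's were sought among 8861 genes by Pearson's r of log2(scaled FPKM + 1). Since all genes share the same 4 groups and libraries, r is high for many genes and carries no test. Gad1 was nearest to Rgs8 (r = 0.992) and Gad2 to St8sia3 (r = 0.996), and each of these genes was second for the other of the pair. Sst was nearest to the pan-neuronal marker Snap25 (r = 0.995), Cck to Nptx1 (r = 0.994) and Vip to the serotonin receptor gene Htr1a (r = 0.982). Npy and Lhx6 were both nearest to Dzank1 (r = 0.990 and 0.991), and Nos1 was nearest to the NMDA receptor gene Grin2b (r = 0.983).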

How the data were processed

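Per the submitters' processing notes, base calls came from bcl2fastq 2.17, and STAR, HTSeq and mm10 were named. The deposited values are FPKM per gene, 1 table per library. Of 24060 gene labels, 27 had been turned into dates and were left out. Whole fragments behind each FPKM were recovered for 100.0% of 18621 genes (tolerance 0.05), so depth is known. Fold changes come from limma 3.58.1 (R 4.3.3) on log2(FPKM/f + 1), with f a trimmed-mean factor (0.746 to 1.303), all 16 libraries, 4 group terms, trended robust variance and genes that reach 1 FPKM in 4 or more libraries. Calls are at adjusted p under 0.05 over 13449 genes. Libraries are paired by animal, per the labels. After group means were removed, same-animal IPs correlated at 0.308 to 0.532 and IP with input at -0.008 to 0.172, and the animal entered as a block in an alternative. Members and lists were chosen with earlier results of these data known. All 10 members were named, and from each list up to 4 genes with the smallest p and up to 4 for their level. Some genes that met this rule are left unreported. The procedure was tested on simulated data. Alternatives were another pseudocount, no filter, no scaling, plain variance, only the groups compared, the animal block, libraries left out, and limma's voom on recovered fragments, chosen after seeing the data. Coordinates are from GENCODE on GRCm38.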

Additional observations from a re-analysis of the deposited data

Results flagged for a closer look

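Among 40 groups of 4 libraries, 1 held a library far from the others, where chance flags about 5% of groups. It was Pnoc in striatal IP, at 0.0640 scaled FPKM in animal 974 (4 fragments) and 0 in the other 3 animals. For 3 genes the change in IP over input differed between striatum and hippocampus in a test of the difference itself, by 1.93 for Cck, 1.84 for Vip and 1.10 for Nos1 on the log2 scale (limma, adjusted p = 0.00209, 0.000244 and 0.00534), each with the less negative change in striatum. None of the 3 passed with a pseudocount of 0.1 or on recovered fragments. Of 18 pan-neuronal markers, 7 also had a higher value in striatum in the fit reported and 0 a lower one.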

How the results depend on the processing

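Of 513 fold changes of the 9 tested genes under the alternatives, 484 kept their direction and their side of the threshold and 29 did not. The number of the 9 genes whose IP change differed between regions, 3 as reported, was 0 with a pseudocount of 0.1 and 0 on recovered fragments, and 3 in each fit without 1 animal. Signs turned for values that were not called: Nos1 between IPs, reported as -0.02, was 0.0646 with no scaling and between -0.15 and 0.12 in the fits without 1 animal (0.12 without animal 970, 0.02 without 971), Pvalb between IPs was 0.12 without 970, and the region difference of Npy, reported as -0.37, was 0.20 with a pseudocount of 0.1 and 0.25 on recovered fragments. The calls of Pvalb and Lhx6 between inputs were also lost with a pseudocount of 0.1, with only the groups compared and on recovered fragments. The cause was not tested. With the animal as a replicate block, 8 genes were called in striatal IP over input, 9 in hippocampal IP over input, 3 between IPs, 8 between inputs and 3 for the region difference, and no call of a tested gene changed. With no scaling, the median of all genes moved to -0.25, -0.51 and 0.11 (striatal IP over input, hippocampal IP over input, between IPs), against 0.01, -0.10 and -0.02 with it, and to 0.25, against 0.09, for the region difference. The share of calls that were lower was 63.9, 74.1, 30.6 and 27.8% in the same order, against 48.4, 54.1, 42.8 and 38.7% with scaling. Over all genes, leaving out 1 animal gave 876 to 1362 calls between IPs, against 1687, 2824 to 4444 between inputs, against 4886, and 747 to 1562 for the region difference, against 1856. Depth limits Npy, Vip, Pvalb and Pnoc in the IPs, where single libraries held as few as 0 to 2 fragments. It also limits Vip, Pvalb and Pnoc in striatal input, at 1 to 19, 4 to 65 and 0 to 8 fragments per library.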
